A study of Saccharomyces cerevisiae with 30 samples.

Results

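The ribosome biogenesis genes described here are the 55 genes on the array whose symbol is NOP, UTP, RRP or NOC followed by a number, out of 5547 genes measured. They were chosen by symbol, with no measured value, and comprise 16 NOP, 18 UTP, 18 RRP and 3 NOC genes. RefSeq names 56 genes of this kind in yeast, and NOP10 was not analysed here. Each of the 55 genes has a textbook role in making or trimming ribosomal RNA or in assembling ribosomal subunits. By role they fall into 3 box C/D snoRNP proteins, 6 UTP-A and 4 UTP-B subunits, 17 other proteins of the small-subunit processome, 2 factors needed for both subunits, 16 factors of large-subunit assembly and 7 subunits or cofactors of the exosome. Each gene had 1 spot per array, and 50 of them had a value on all 28 arrays used.

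RNA of Saccharomyces cerevisiae strains was hybridised on 30 two-channel arrays in a study whose title names the coactivator complexes TFIID and SAGA. Strains YKH100, YKH101, YJS7, YJS8 and YJS9, and YJS8 at 26 °C, were each set against strain YJS6, with 2 arrays each. Strains YKH104, YKH106, YKH107 and YKH108 (2 arrays each) and YKH109 (3 arrays) were set against strain YKH105. Self arrays with the same strain in both channels numbered 4 for YJS6 and 3 for YKH105. The labels give strain names only, with no genotype, allele or promoter. The growth medium was CSM-Trp-His. Every culture was kept at 26 °C until the OD600 was near 0.8, and all but the 26 °C group of YJS8 then spent 45 min at 37 °C before harvest, so the reference strains were heat-shifted too. On the arrays of the 26 °C group the reference YJS6 was not shifted either. The labels do not say whether the arrays of a strain came from separate cultures, and p-values then measure only the spread between arrays, which may be technical.

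Ribosome production in yeast starts in the nucleolus, where RNA polymerase I makes a long precursor rRNA. Small nucleolar ribonucleoproteins (snoRNPs) guide its modification and cleavage, the small-subunit processome with its UTP-A and UTP-B complexes forms on the nascent transcript, and a separate set of factors builds the large subunit, while the exosome, an exonuclease complex, trims the intermediates. The genes for these factors are known to rise with growth and to fall in stress, and they share promoter elements that the ribosomal protein genes lack.

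Every value below is a log2 ratio relative to the median gene of its array, and errors are standard errors (SE) of limma's fit, with adjusted p-values from limma and n as the number of arrays. The ratio was read as likely test strain over reference strain, because SPT3 was at about -8 in YKH104 and YKH107 and GCN5 at about -5 in YKH100 and YKH101. That reading assumes that these transcripts are missing from the named strain and not in excess in the reference, and the opposite reading would turn every sign below. The second arrays of YKH100 and YJS8 held identical values and were left out, so both strains rest on 1 array at 37 °C. That repeated array held GCN5 at -6.00, against -4.98 on the other array of YKH100 and 0.52 on the other array of YJS8 at 37 °C, so the alternatives below that count it as YJS8 go against its GCN5 value. Arrays were grouped by their labels and not by such values. The array median itself moved on the deposited scale, by -0.97 in YKH107, -0.97 in YKH109, -0.98 in YJS8, -0.70 in YKH101, -0.70 in YKH108 and -0.53 in YJS9, and by -0.32 to 0.19 in the other groups. On the self arrays it ran from -0.54 to 0.67, a range that holds the value of YJS9. The values of YJS8 and YKH100 are from 1 array with the test strain in channel 1, and the others are means over both orientations. Arrays measured whole cultures, in which fewer cells holding a transcript and less of it per cell cannot be told apart. Across the 55 genes the arrays of opposite orientation correlated at 0.95 in YKH107, 0.86 in YJS9 and 0.71 in YKH101, at 0.12 in YKH106 and at -0.56 in YJS8 at 26 °C, as a description of points that share an array. On the 7 self arrays the genes' lowest values had a median of -0.31 and their highest a median of 0.36, and 52 of the 55 genes stayed within 1 of the array median.

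The ribosome biogenesis genes moved in both directions, and in most groups they were called no more often than other genes. Of 599 pairs of a gene and a group that could be tested, 108 were called at an adjusted p under 0.05, with 71 lower and 37 higher, and 18 of these changes were at least 1 in size. The pooled share of all genes is not given here, and the shares group by group follow. In YKH108, 15 of 54 genes were lower and 0 higher, where 19.6% of all tested genes were called lower and 17.6% higher. Of the genes in YKH109, 18 of 55 were lower and 6 higher, against 27.6% lower and 25.5% higher among all genes. YKH107 had 14 of 55 higher and 9 lower, against 23.9% higher and 24.7% lower. The biogenesis genes thus had medians of -0.18 in YKH108 and -0.14 in YKH109, and were spread to both sides in YKH107, with a median of 0.08. On single self arrays their median ran from -0.11 to 0.16. The arrays of YKH108 had medians of -0.25 and -0.15, below that range. Those of YKH109 had -0.21, -0.12 and -0.08, of which the last lay within it, as did both arrays of YKH107.

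Among the strains set against YJS6, YJS9 had 11 of 55 genes lower and 7 higher, against 22.3% and 21.7% of all genes. YKH101 had 8 of 53 lower and 3 higher, where the shares of all genes were 20.1% and 19.6%. Both counts were below the share of all genes in each direction, and the medians were -0.03 in YJS9 and -0.06 in YKH101. YJS8 at 37 °C had 4 of 54 lower and 1 higher, against 7.47% and 8.34%, with a median of -0.14 from a single array. YJS7 had 3 of 55 lower and 0 higher, against 6.93% and 7.36%. In YKH104 the balance ran the other way, with 6 of 55 genes higher and 2 lower against 6.56% and 7.12%.

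Few or no biogenesis genes were called in the remaining groups. YKH100, on its single array, had 1 of 55 lower and 0 higher, where 0.691% and 0.546% of all genes were called. YKH106 had 0 of 55 called by limma, against 0.636% of all genes higher and 0.455% lower, and 6 genes at an unadjusted p under 0.05. YJS8 at 26 °C had 0 of 53 called by limma, against 0.0182% of all genes higher and 0% lower, and 0 genes at an unadjusted p under 0.05, with all fitted values between -0.18 and 0.22. Its 2 arrays correlated at -0.56 across these genes and had the same sign at 16 of 53, so opposite values partly cancel in that range. On the deposited scale, where the array median is not subtracted, no biogenesis gene was higher in any group but NOP56 in YJS8. The lower calls numbered 46 in YKH109, 32 in YKH107, 23 in YKH108, 18 in YKH101, 10 in YJS9, 1 in YJS8 and 1 in YJS7, with 0 in YKH100, YKH104 and YKH106. The array median itself was at -0.97 in YKH109 and YKH107 and at -0.70 in YKH108 and YKH101 on that scale. The share of all genes called there is not given here, so these counts do not set the biogenesis genes apart from other genes.

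**Figure D1:**
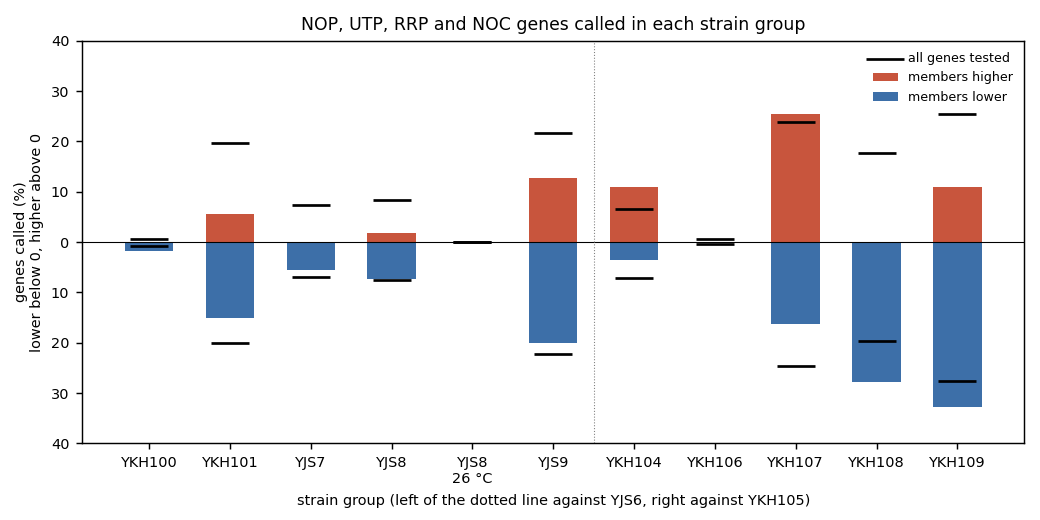
Share of the 55 biogenesis genes called higher (above 0) and lower (below 0) in each strain group, in percent of the genes tested, with black marks for the share of all tested genes. Bars stay inside the marks in YKH101 and YJS9, while in YKH108 the bar of lower genes passes its mark and no gene was higher.

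The calls of single genes rest on few arrays, and many were not made again when an array of the group itself was left out. With each of the group's arrays left out in turn, 15 of 24 calls were made every time in YKH109, 10 of 23 in YKH107, 7 of 18 in YJS9, 5 of 11 in YKH101, 4 of 15 in YKH108, 2 of 3 in YJS7 and 0 of 8 in YKH104. A call described below as held is 1 of these. RRP1 was lower in 7 groups, more than any other of these genes, followed by NOP1, NOP7 and UTP23, each lower in 6, and NOP6 and RRP5, each lower in 5. Over all groups 19 genes were called only lower, 16 only higher and 4 in both directions (NOC3, NOP56, UTP21 and UTP30), and 16 were never called. The same tally over all genes is not given here.

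**Figure D2:**
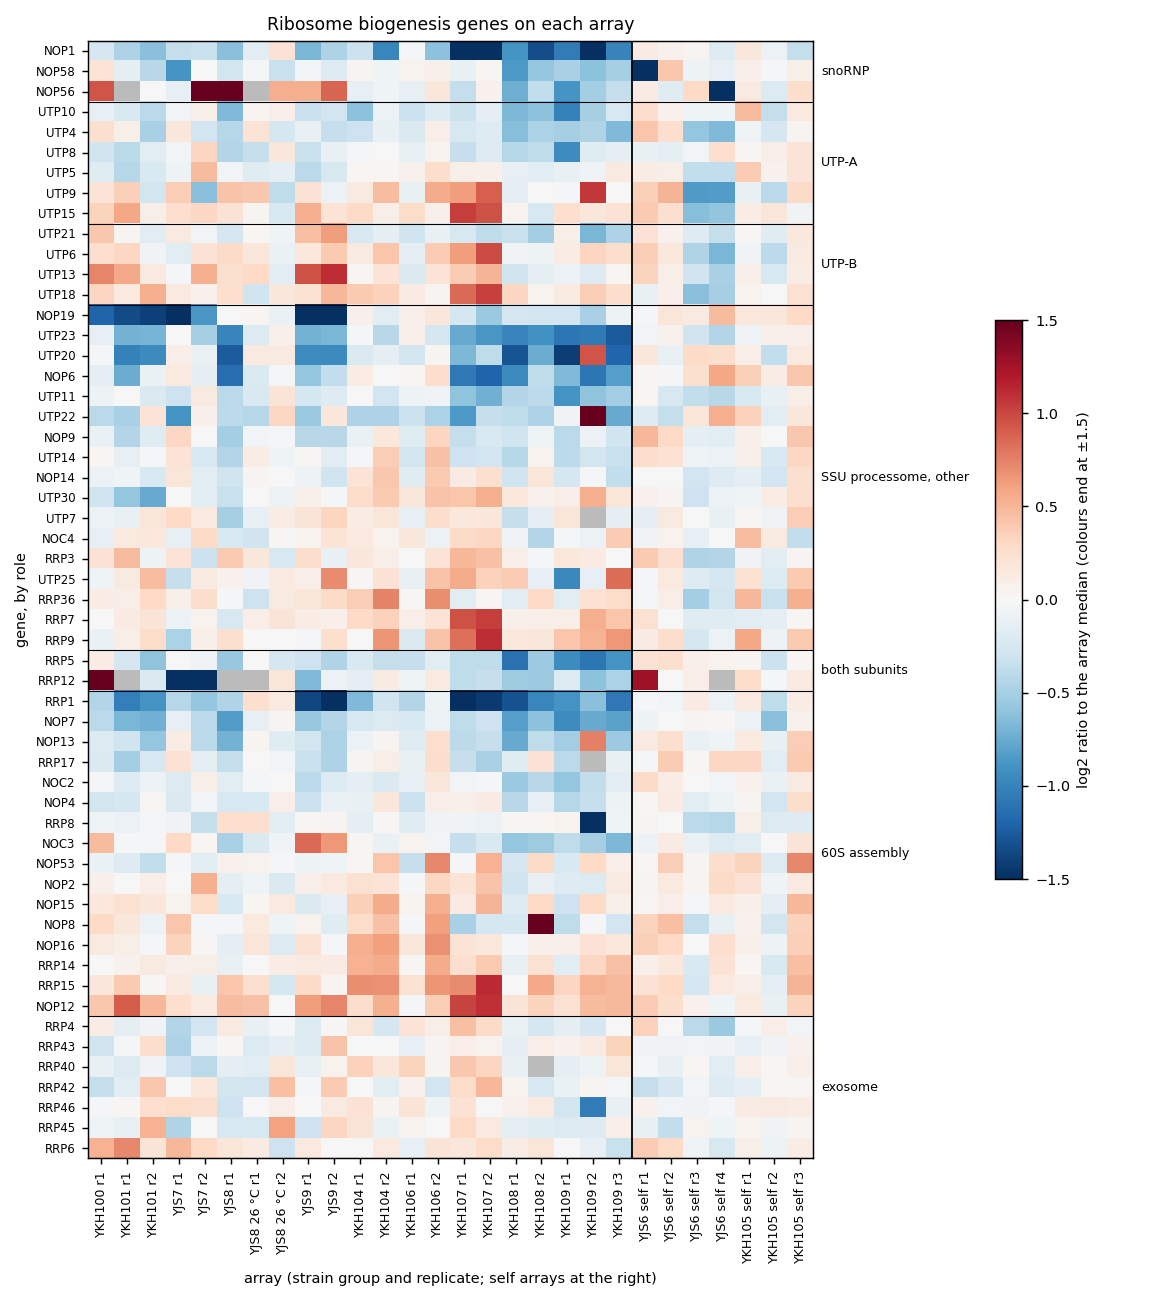
Log2 ratio of each biogenesis gene (rows, grouped by role and ordered within a role by mean change) on each array (columns), relative to the array median, with missing values in grey. Rows such as NOP1, UTP23, RRP1 and NOP7 are blue over most heat-shifted strains. NOP12, RRP9 and RRP15 are reddest in YKH107, and the self arrays at the right are mostly pale.

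Of the box C/D snoRNP proteins, which carry out the guided methylation of rRNA, NOP1 (YDL014W), the methyltransferase fibrillarin, had the lowest values. NOP1 stood at -1.57 and -1.52 on the arrays of YKH107, -0.89 and -1.33 in YKH108, and -1.05, -1.57 and -1.01 in YKH109, against a range of -0.36 to 0.17 on the self arrays. All 7 of these arrays lay below every self array. The change was -1.54 ± 0.19 in YKH107 (SE, n = 2, adjusted p = 4.1e-05), -1.11 ± 0.19 in YKH108 (n = 2, adjusted p = 0.00075) and -1.18 ± 0.15 in YKH109 (n = 3, adjusted p = 5.6e-05), and all 3 calls held. In YKH101 (-0.55), YJS9 (-0.57) and YKH104 (-0.65) NOP1 was also lower, but none of these calls was made without either array. Without single arrays the values were -0.54 and -0.55 in YKH101, -0.36 and -0.79 in YJS9, and -0.38 and -0.93 in YKH104.

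NOP58 and NOP56, further core proteins of these particles, moved less and with more scatter. NOP58 was at -0.86 and -0.58 in YKH108 and at -0.48, -0.62 and -0.49 in YKH109, and was called lower in both (-0.72 ± 0.17 and -0.54 ± 0.14). Without YKH108 replicate 1 its value was -0.59 and was not called. On the self arrays NOP58 ran from -2.83 to 0.41, so that a self array lay below all of these values. With the self arrays in the fit, all entered in the same assumed orientation, NOP58 was not called in YKH108 (-0.72) or in YKH109 (-0.57). NOP56 was at 3.56 on the single array of YJS8 at 37 °C and at 0.54 on the array of YJS8 at 26 °C that measured it. It was called higher in YJS8 (3.82 ± 0.33, n = 1, adjusted p = 0.00015), and fell to 1.94, not called, when the repeated array was counted as YJS8. A self array of YJS6 put NOP56 at -2.17. It was also called higher in YJS9 (0.71) and lower in YKH109 (-0.67), calls that were lost without either array of YJS9 (0.61 and 0.81) and without YKH109 replicate 1 (-0.70).

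The UTP-A complex, the first to join the nascent transcript, split between members. UTP15 (YMR093W) stood at 1.03 and 0.95 in YKH107, against -0.64 to 0.39 on the self arrays, which is a change of 0.99 ± 0.11 (SE, n = 2, adjusted p = 1.7e-05). Both arrays lay above all self arrays, and the call held. UTP15 was also called higher in YJS9 (0.37), YKH101 (0.33) and YKH109 (0.25), where the arrays overlapped the self arrays. None of those calls held. The values were 0.30 and 0.45 without single arrays of YJS9, 0.17 without YKH101 replicate 1, and 0.23 and 0.21 without YKH109 replicates 2 and 3.

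Other UTP-A subunits were lower in YKH108 and YKH109. UTP10 was at -0.67 and -0.61 in YKH108 (-0.64 ± 0.14) and at -1.01, -0.49 and -0.24 in YKH109 (-0.61 ± 0.12), against -0.35 to 0.47 on the self arrays. Replicate 3 of YKH109 lay within the range of the self arrays. UTP4 was called lower in the same strains, at -0.55 ± 0.16 and -0.52 ± 0.13, although self arrays of YJS6 reached -0.67 for it. UTP8 was called lower at -0.40 ± 0.13 in YKH108 and -0.47 ± 0.11 in YKH109. Of these, the calls of UTP10 and UTP4 in YKH109 held. The others were lost at -0.57 for UTP10 without YKH108 replicate 2, at -0.40 and -0.71 for UTP4 without YKH108 replicates 1 and 2, at -0.54 and -0.26 for UTP8 without them, and at -0.27 for UTP8 without YKH109 replicate 1. UTP5 was called lower in YJS9 (-0.32) and YKH101 (-0.33), not held in either, with -0.30 to -0.36 without single arrays. UTP9 was called in no group. NAN1, a UTP-A subunit outside the name rule, was looked up after the UTP values were seen. It was called lower in YJS9 (-0.51), YKH101 (-0.57) and YKH109 (-0.40), and was at -0.38, not called, in YKH108.

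The UTP-B complex, which joins next to UTP-A and holds the U3 snoRNA, has 4 subunits with a UTP name here, of which 3 were called higher in YKH107 and 3 in YJS9, where 23.9% and 21.7% of all genes were called higher. UTP21 was at -0.31 ± 0.14 in YKH107, not called, and UTP6 was the subunit not called in YJS9. The complex also holds DIP2 and PWP2, looked up after the UTP values were seen. DIP2 was called higher in YJS9 (0.44 ± 0.14) and was at -0.30, not called, in YKH107, and PWP2 was at 0.06 in YJS9 and -0.01 in YKH107, not called. Both were called lower in YKH108 (DIP2 -0.49, PWP2 -0.42) and YKH109 (DIP2 -0.49, PWP2 -0.38). In YKH107 UTP18 (YJL069C) stood at 0.85 and 1.02 and UTP6 (YDR449C) at 0.62 and 0.98, against self arrays of -0.63 to 0.22 and -0.69 to 0.36. These are changes of 0.93 ± 0.13 (adjusted p = 0.00011) and 0.80 ± 0.15 (adjusted p = 0.0008), and both calls held. UTP13 was called at 0.44 in YKH107, and was not called without either array (0.47 and 0.41). In YJS9 UTP13 (YLR222C) stood at 0.96 and 1.10, against -0.48 to 0.34 on the self arrays, a change of 1.03 ± 0.16 (adjusted p = 0.00036) that held. UTP21 was called higher in YJS9 at 0.54 and lower in YKH108 at -0.42 and YKH109 at -0.33, of which none held. Its values were 0.37 without YJS9 replicate 2, -0.45 and -0.39 without single arrays of YKH108, and -0.18 and -0.30 without YKH109 replicates 2 and 3. UTP18 was called higher in YJS9 too (0.36), and not without either array (0.45 and 0.27). On the deposited scale UTP18 and UTP6 were near 0 in YKH107 (-0.03 and -0.16), so the higher level is one relative to the array median.

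Among the other processome proteins, UTP23 (YOR004W), which acts with the snoRNA snR30, was lower in the 5 strains with the most genes called, and in YJS8 at 37 °C. UTP23 stood at -0.75 and -0.87 in YKH107, -0.99 and -0.90 in YKH108, -1.09, -1.06 and -1.26 in YKH109, -0.70 and -0.68 in YJS9, and -0.71 and -0.70 in YKH101. All 11 of these arrays lay below the self arrays, which ran from -0.44 to 0.08. The changes ran from -1.12 ± 0.11 in YKH109 (SE, n = 3, adjusted p = 6.3e-06) to -0.69 ± 0.13 in YJS9 (n = 2, adjusted p = 0.0013), and all 5 calls held. On the single array of YJS8 at 37 °C it was at -0.99 (fitted -1.04 ± 0.19, adjusted p = 0.0042). In YJS7, with arrays at 0.01 and -0.49, it was not called.

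NOP6 (YDL213C), an early small-subunit assembly factor, was lower in 5 groups. It stood at -1.07 and -1.20 in YKH107 and at -0.66, -1.09 and -0.82 in YKH109, against self arrays between -0.02 and 0.58. The changes of -1.14 ± 0.17 (adjusted p = 0.00019) and -0.87 ± 0.14 (adjusted p = 0.00028) held. In YKH108 its arrays stood at -0.96 and -0.38, and the call (-0.67) was lost without replicate 1 (-0.40). On the single array of YJS8 at 37 °C NOP6 was at -1.14 and was called. The repeated array held it at 0.28, and counting that array as YJS8 left -0.43, not called. In YJS9 it was called at -0.47, and not without either array (-0.41 and -0.54). UTP11 was lower in YKH107 (-0.66 ± 0.14), YKH108 (-0.42 ± 0.14) and YKH109 (-0.68 ± 0.11), held in YKH109. Without YKH107 replicate 2 UTP11 was at -0.55, and without single arrays of YKH108 at -0.44 and -0.40. NOP9, an RNA-binding protein of the same particles, was called lower in YJS9 (-0.42) and YKH109 (-0.29), and neither call held. Its values were -0.50 and -0.34 without single arrays of YJS9, and -0.26 and -0.24 without YKH109 replicates 1 and 3.

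Some processome genes were higher in YKH107, the strain in which their set as a whole had the widest quartile range. RRP7 (YCL031C), a partner of the UTP-C complex, stood at 0.95 and 1.04 in YKH107, against -0.19 to 0.22 on the self arrays, a change of 0.998 ± 0.098 (SE, n = 2, adjusted p = 9.3e-06). RRP9 (YPR137W), a U3 snoRNP protein, stood at 0.83 and 1.11, against -0.25 to 0.58, a change of 0.97 ± 0.13 (adjusted p = 0.00011). All 4 values lay above the self arrays and both calls held. In YKH109 both genes were called higher, at 0.34 ± 0.08 for RRP7, from arrays at 0.10, 0.54 and 0.42, and at 0.48 ± 0.11 for RRP9, from arrays at 0.42, 0.52 and 0.65. Those calls held too, although the arrays overlapped the self arrays, and on the deposited scale RRP7 was at -0.57 and RRP9 at -0.43. The helicase gene RRP3 was called higher in YKH107 at 0.47, not held (0.56 and 0.38 without single arrays). UTP30 was higher in YKH107 (0.47) and YKH109 (0.28) and lower in YKH101 (-0.67 ± 0.12, held), from arrays at -0.58 and -0.75. Its values were 0.53 and 0.42, not called, without single arrays of YKH107, and 0.15 without YKH109 replicate 2.

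NOP19 (YGR251W), a processome protein, was called lower in 4 of the strains set against YJS6 and in none set against YKH105. It stood at -1.75 and -1.53 in YJS9, -1.59 and -0.87 in YJS7, -1.34 and -1.40 in YKH101, and -1.21 on the array of YKH100. All of these arrays lay below the self arrays, which ran from -0.01 to 0.48. The changes were -1.64 ± 0.16 in YJS9 (SE, n = 2, adjusted p = 9.6e-06), -1.23 ± 0.16 in YJS7 (n = 2, adjusted p = 0.00089), -1.37 ± 0.16 in YKH101 (n = 2, adjusted p = 4.5e-05) and -1.19 ± 0.23 in YKH100 (n = 1, adjusted p = 0.028), and those of YJS9, YJS7 and YKH101 held. YKH100 has no second array to leave out, and its call was lost (-1.25) when the repeated array was counted as YJS8. That alternative goes against the repeated array's GCN5 value of -6.00, and the array held NOP19 at -1.23. All of these strains, and YJS8, share the reference YJS6. In YJS8 NOP19 was at -0.01 at 37 °C and at 0.03 and -0.10 at 26 °C, and on the 11 arrays against YKH105 it lay between -0.56 and 0.17. All arrays of YKH107, YKH108 and YKH109 lay below every self array. In YKH107 the change was -0.41 ± 0.16 (adjusted p = 0.051), which was called (adjusted p = 0.041) without replicate 2 of YKH109.

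The strains in which NOP19 was lower were also those in which the ratio of its neighbour was far from 0. In the gene order of RefSeq assembly R64, NOP19 is followed by GCN5 (YGR252W), the histone acetyltransferase of SAGA, on the same strand. GCN5 was higher in YJS9 (3.23 ± 0.18) and YJS7 (2.48 ± 0.18), lower in YKH101 (-5.39 ± 0.18) and YKH100 (-4.99 ± 0.26), and not called in YJS8 (0.51 ± 0.26). NOP19 was thus lower beside a higher and beside a lower GCN5. The gene after GCN5, PUP2, was called higher in YJS9 (0.43) and YKH101 (0.59) and was not called in YJS7 (0.23) or YKH100 (0.29), and the gene before NOP19, RIE1, was called in none of the 4 (-0.44 to 0.81). These neighbours were looked up after the values of NOP19 were seen. The labels give no genotype at GCN5, and what part the locus has in the values of NOP19 was not tested.

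**Figure D3:**
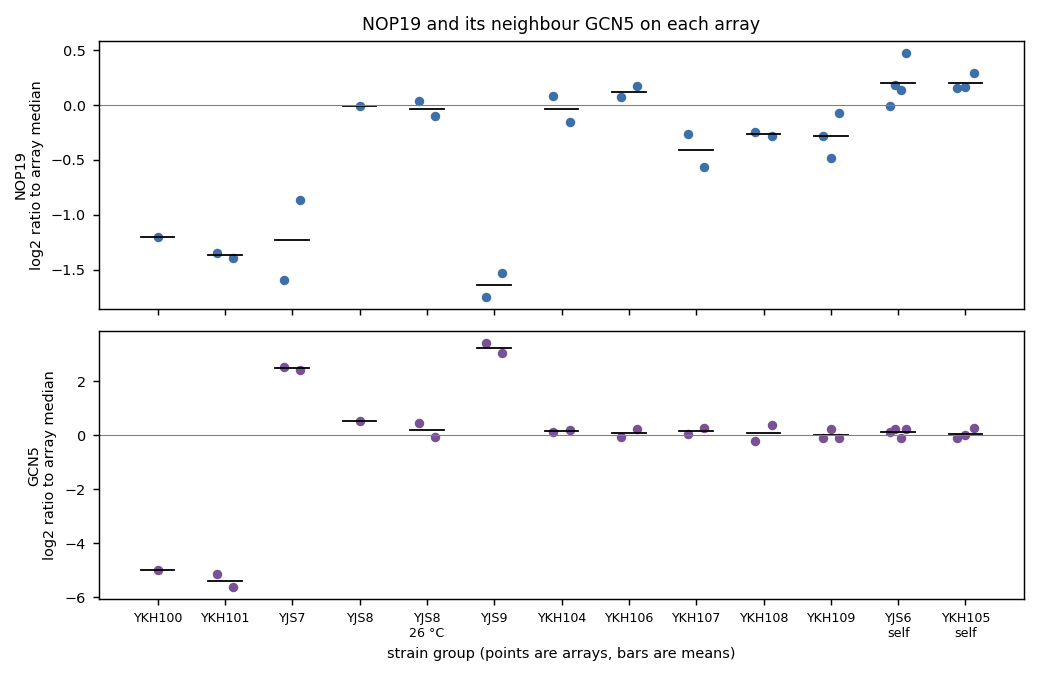
Log2 ratio to the array median of NOP19 (upper panel) and its neighbour GCN5 (lower panel), with 1 point per array, a bar at the mean of each strain group, and the self arrays at the right. NOP19 lies between -0.87 and -1.75 in YKH100, YKH101, YJS7 and YJS9, the groups in which GCN5 is far below or far above 0.

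RRP5 and RRP12 act in making both subunits. RRP5 (YMR229C), which is needed for cleavages on either side of the precursor's split, stood at -0.95, -1.09 and -0.89 in YKH109 and at -1.12 and -0.54 in YKH108, against -0.32 to 0.25 on the self arrays. All 5 arrays lay below the self arrays. The change was -0.97 ± 0.12 in YKH109 (SE, n = 3, adjusted p = 2.7e-05), which held, and -0.83 ± 0.14 in YKH108, which was not called without replicate 1 (-0.49). RRP5 was also called lower in YKH101 (-0.43), YJS9 (-0.38) and YKH107 (-0.38), and none of these held. The values were -0.24 without YKH101 replicate 2, -0.44 and -0.31 without single arrays of YJS9, and -0.37 and -0.39 without those of YKH107. RRP12, an export factor, had a value on fewer arrays than any other of these genes. Its arrays in YJS7 stood at -1.57 and -4.18, a change of -2.88 ± 0.43 (adjusted p = 0.0031), and they differed by 2.61 from each other. A self array of YJS6 held RRP12 at 1.27, and the gene could not be tested in YKH101, in YJS8 at 37 °C or in YJS8 at 26 °C.

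RRP1 (YDR087C), a protein of early large-subunit particles, was lower in more groups than any other biogenesis gene. It stood at -1.77 and -1.43 in YKH107, -1.31 and -0.98 in YKH108, -0.90, -0.62 and -1.08 in YKH109, -1.36 and -1.61 in YJS9, and -1.02 and -0.90 in YKH101. Each of these arrays lay below the self arrays (-0.39 to 0.14). The changes ran from -1.60 ± 0.14 in YKH107 (SE, n = 2, adjusted p = 5.3e-06) and -1.48 ± 0.14 in YJS9 (n = 2, adjusted p = 9.3e-06) to -0.89 ± 0.12 in YKH109 (n = 3, adjusted p = 7e-05), and these, with -1.15 in YKH108 and -0.96 in YKH101, held. Smaller calls in YJS7 (-0.50) and YKH104 (-0.48) did not hold, with -0.65 and -0.36 without single arrays of YJS7 and -0.34 and -0.62 without those of YKH104.

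NOP7 (YGR103W), of the Nop7-Erb1-Ytm1 complex of large-subunit assembly, was lower by less and with close arrays. It stood at -0.94, -0.76 and -0.80 in YKH109, -0.82 and -0.61 in YKH108, -0.69 and -0.72 in YKH101, and -0.56 and -0.43 in YJS9. The self arrays ran from -0.63 to 0.07, and 6 of the 7 stayed at or above -0.09. The changes of -0.84 ± 0.08 in YKH109 (adjusted p = 6.1e-06), -0.71 ± 0.10 in YKH108, -0.70 ± 0.10 in YKH101 and -0.50 ± 0.10 in YJS9 all held. In YKH107 NOP7 was called at -0.35, and not without either array (-0.35 and -0.34), and on the single array of YJS8 at 37 °C it was at -0.84.

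NOC2 and NOC3, which act together as a pair in moving large-subunit precursors, were both lower in 2 strains and parted in another. NOC3 (YLR002C) was lower in YKH109 (-0.51 ± 0.09, held) from arrays at -0.38, -0.50 and -0.67, and in YKH108 (-0.56 ± 0.10) from arrays at -0.58 and -0.53. In YJS9 it was higher, with arrays at 0.85 and 0.65, against -0.21 to 0.20 on the self arrays, and a change of 0.75 ± 0.10 (adjusted p = 0.00013) that held. NOC2 was lower in YKH109 (-0.40 ± 0.09, held), YKH108 (-0.49 ± 0.10) and YJS9 (-0.31 ± 0.10). NOC2 was not called without either array of YKH108 (-0.49 and -0.48) or of YJS9 (-0.28 and -0.33), and NOC3 was not called in YKH108 without replicate 1 (-0.49). NOC3 was also called in YKH107 (-0.29), not without either array (-0.19 and -0.39), and on the single array of YJS8 (-0.52), which became -0.12 with the repeated array.

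Other large-subunit factors were higher. NOP12 (YOL041C), an RNA-binding protein, stood at 1.01 and 1.10 in YKH107, 0.63 and 0.73 in YJS9, and 0.91 and 0.50 in YKH101, all above the self arrays (-0.11 to 0.38). The changes were 1.05 ± 0.14 in YKH107 (SE, n = 2, adjusted p = 0.0001), 0.68 ± 0.14 in YJS9 and 0.70 ± 0.14 in YKH101. The first 2 held, and in YKH101 the call was lost without replicate 1 (0.45). In YKH109 it was called at 0.39, and not without replicate 2 or 3 (0.36 each), and on the deposited scale it was at -0.52 there. RRP15 was higher in YKH107 (0.91 ± 0.18), YKH104 (0.69 ± 0.18) and YKH109 (0.44 ± 0.15), and none of these held. Its values were 0.70 without YKH107 replicate 2, 0.67 and 0.71 without single arrays of YKH104, and 0.40 to 0.50 without those of YKH109.

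The 6 genes higher in YKH104 were RRP15, NOP16 (0.58 ± 0.14), RRP36 (0.56 ± 0.11), RRP14 (0.54 ± 0.12), NOP15 (0.45 ± 0.12) and RRP7 (0.33 ± 0.10). NOP16 stood at 0.55 and 0.62 in YKH104, against -0.08 to 0.36 on the self arrays, and RRP36 at 0.37 and 0.74, against -0.51 to 0.54. No call in YKH104 held, and the values of these 5 genes ran from 0.29 to 0.64 without single arrays. In YKH107, RRP14 (0.33) and NOP15 (0.31) were called as well, and neither held (0.26 to 0.37 without single arrays). RRP17, an exonuclease of large-subunit precursors, was called lower in YJS9 (-0.40) and YKH107 (-0.42), without holding (-0.28 to -0.54). NOP4, an RNA-binding protein of the large-subunit pathway, was called lower in YKH109 (-0.32 ± 0.08, held) and in YKH108 (-0.27), where it was not called without either array (-0.25 and -0.29).

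**Figure D4:**
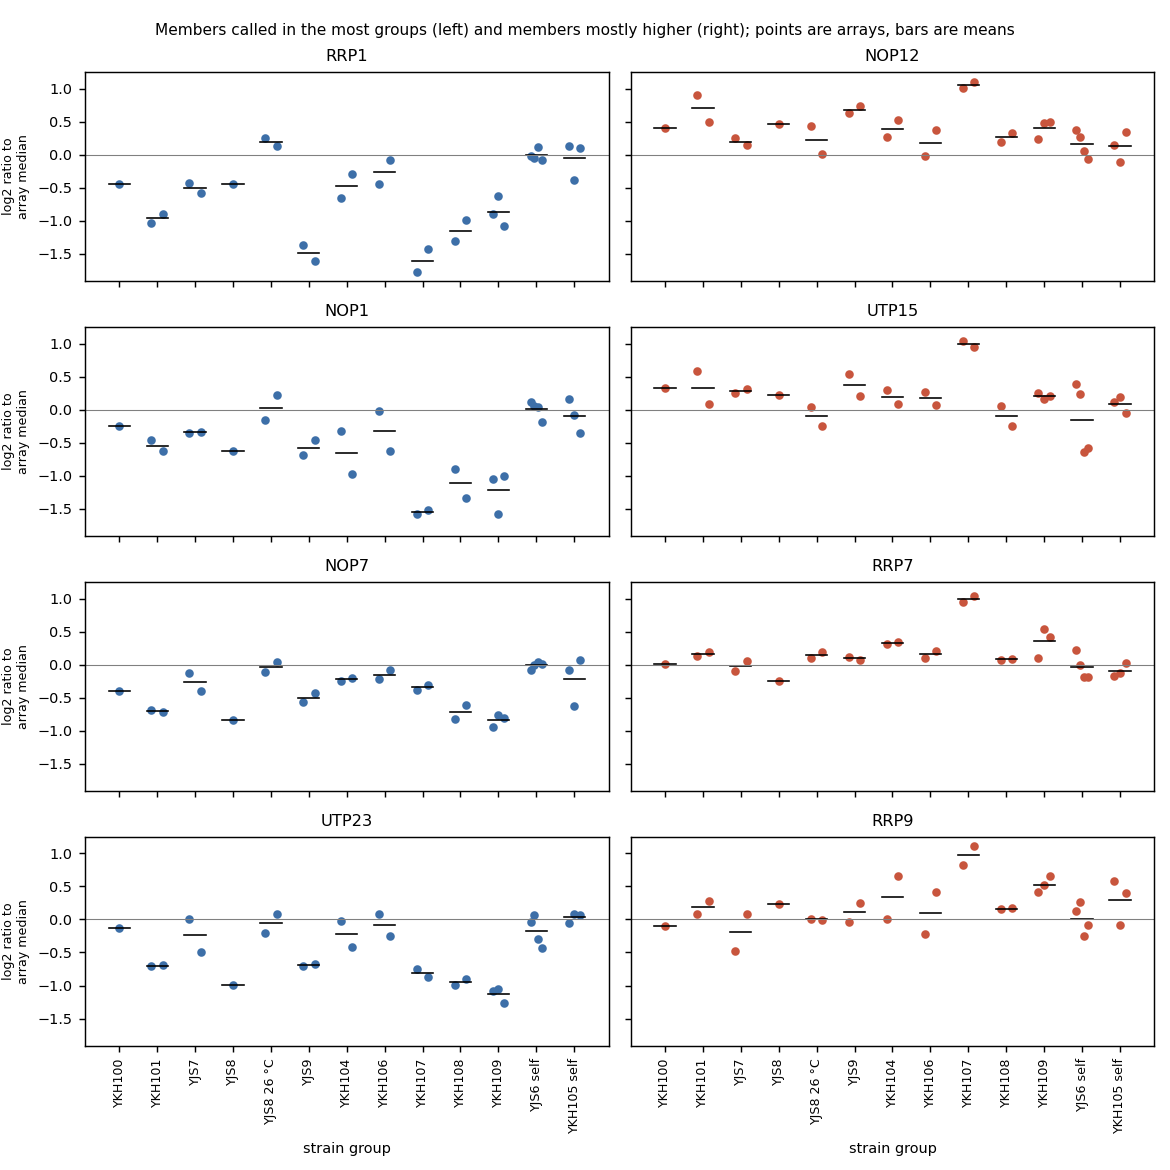
Log2 ratio to the array median of 8 biogenesis genes by strain group, with 1 point per array, a bar at the group mean and the self arrays at the right. RRP1, NOP1 and UTP23 (left) lie below all self arrays in YKH108 and YKH109, as does NOP7 but for the array of YKH108 at -0.61, whereas NOP12, UTP15, RRP7 and RRP9 (right) are highest in YKH107, near 1.

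The exosome genes moved least. Of 7 measured, RRP4 and RRP40, which form part of the cap of the exosome, were called higher in YKH107 (0.37 ± 0.12 and 0.36 ± 0.13). RRP6, the nuclear exonuclease, was called higher in YKH101 (0.46 ± 0.14) from arrays at 0.72 and 0.20, and RRP46 lower in YKH109 (-0.47 ± 0.15) from arrays at -0.28, -1.05 and -0.11. None of these calls held. Values without an array were 0.30 to 0.44 for RRP4 and RRP40, 0.22 for RRP6 without YKH101 replicate 1, and -0.19 for RRP46 without YKH109 replicate 2. The ring subunits RRP42, RRP43 and RRP45 were never called.

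Replicate 2 of YKH109 stood apart from the other arrays of its strain. It had the fewest values of all arrays (5955 of 6400 spots) and the widest spread (SD 1.14 over all genes, against 0.80 and 0.77 on replicates 1 and 3), and across the biogenesis genes it correlated at 0.37 and 0.33 with the other arrays, which correlated at 0.67 with each other. UTP20 (YBL004W), a large scaffold protein of the processome, had arrays in YKH109 that differed by more than 2, for a cause not tested. It stood at -1.41 and -1.19 on replicates 1 and 3 of YKH109 and at 0.95 on replicate 2. Elsewhere UTP20 was at -1.30 and -0.74 in YKH108, -0.95 and -0.95 in YJS9, -1.01 and -0.96 in YKH101, -0.67 and -0.38 in YKH107 and -1.25 in YJS8 at 37 °C. All of these but the 0.95 lay below the self arrays, which ran from -0.36 to 0.29.

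With that array in the fit UTP20 was called in no group. Without it UTP20 was lower in 6 groups, by -1.30 ± 0.13 in YKH109 (SE, n = 2, adjusted p = 1e-05), -1.02 in YKH108, -0.99 in YKH101, -0.95 in YJS9, -0.52 in YKH107 and -1.18 in YJS8. NOP13 became lower in 4 groups (YKH101, YJS8, YKH108 and YKH109, by -0.44 to -0.73), and UTP9 (0.76), NOP2 (0.32) and NOP19 (-0.41) were called in YKH107 and RRP17 (-0.37) in YKH101. In YKH109 itself 18 of the 24 calls remained, 6 were lost (UTP30, NOP12, RRP15 and UTP15 among the higher, UTP21 and RRP46 among the lower) and 2 were gained, which left 18 genes lower and 2 higher. YKH108 then had 17 genes lower and 0 higher, YKH107 had 15 higher and 11 lower, YJS9 had 7 higher and 12 lower, and YKH101 had 3 higher and 11 lower. In the fit of all arrays, genes whose arrays within a group differed by more than 2 were UTP22 (2.42 on this array, -0.05 and -0.76 on the others), RRP8 (-2.27, 0.05 and -0.07) and UTP20 in YKH109, NOP8 in YKH108 (-0.27 and 2.06) and RRP12 in YJS7. Of these only RRP12 was called.

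Differences between strains were tested in the same fit. YKH107 stood above YKH108 at 7 of 54 genes and below it at 0, where 18% of all genes were called either way. UTP15 differed by 1.09 ± 0.15 (adjusted p = 0.00042), RRP7 by 0.92 ± 0.14 (adjusted p = 0.00075), UTP6 by 0.86, RRP9 by 0.81, NOP12 by 0.79, UTP18 by 0.75 and RRP4 by 0.55. The differences of UTP15 and RRP7 were made with each array of both strains left out. The other 5 were not, and ran from 0.48 to 0.84 in the fits that lost them. Set against YKH107, YKH109 was lower at 5 of 55 genes (UTP15, UTP18, RRP7, NOP12 and NOP7, by -0.75 to -0.50) and higher at RRP1 (0.71 ± 0.19), against 11% of all genes. Each of these was lost without at least 1 array of YKH107, at -0.50 for NOP7 and 0.59 for RRP1 without replicate 1, and at -0.67 for UTP15, -0.66 for UTP18, -0.67 for RRP7 and -0.63 for NOP12 without replicate 2. Between YKH109 and YKH108, 0 of 54 genes were called by limma, against 5.17% of all genes, with 3 genes at an unadjusted p under 0.05 and a median difference of 0.05.

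YKH109 was lower than YKH106 at 9 of 55 genes and higher at 0, against 26% of all genes either way. The largest differences were UTP23 (-1.03 ± 0.17), NOP6 (-1.02 ± 0.22), NOP1 (-0.86 ± 0.24) and RRP5 (-0.72 ± 0.18), followed by NOP7 (-0.69), RRP1 (-0.62), UTP11 (-0.62), NOC3 (-0.51) and NOC2 (-0.42). Those of UTP23 and NOP7 held without any array of either strain. NOP6 (-0.94) and RRP5 (-0.60) were lost without YKH106 replicate 2, and NOP1 without YKH106 replicate 1 (-0.63) or YKH109 replicate 2 (-0.71). The remaining 4 ran from -0.34 to -0.76 in the fits that lost them. YKH107 differed from YKH104 at 7 of 55 genes, against 15% of all genes, with NOP6 (-1.20), RRP1 (-1.12), NOP1 (-0.89) and RRP36 (-0.62) lower and UTP15 (0.80), RRP7 (0.67) and RRP9 (0.63) higher. Every 1 of these was lost without at least 1 array, at -1.08, -0.98, -0.62, -0.64, 0.80, 0.71 and 0.43 without a replicate of YKH104. On the deposited scale the lower calls were 42 in YKH109 against YKH106 and 13 in YKH107 against YKH104, with 0 higher, and the other strain contrasts had 0 calls. The share of all genes called on that scale is not given here.

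Among strains set against YJS6, YJS9 differed from YJS7 at 6 of 55 genes, against 18.2% of all genes. NOP9 (-0.58), UTP5 (-0.52) and RRP1 (-0.98 ± 0.20) were lower in YJS9, and NOC3 (0.59), UTP13 (0.78) and RRP12 (2.50 ± 0.61) higher. Each was lost without at least 1 array of YJS9, at -0.66, -0.51, -0.78, 0.52, 0.82 and 2.01. Between YJS9 and YKH101 the sole difference was NOC3, higher in YJS9 by 0.77 ± 0.15 (1 of 53 genes, against 2.84% of all genes), and lost at 0.70 without YJS9 replicate 1. NOC3 stood at 0.85 and 0.65 in YJS9 and at -0.02 and -0.03 in YKH101.

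Arrays at 26 °C exist for YJS8 alone, 2 of them beside 1 at 37 °C, each against YJS6 treated alike. The difference is therefore that of the YJS8 to YJS6 ratio at 37 °C and at 26 °C, not the effect of the shift itself. UTP23 was at -0.99 at 37 °C, against -0.20 and 0.08 at 26 °C, a difference of -0.98 ± 0.24 (adjusted p = 0.026). NOP7 was at -0.84 at 37 °C, against -0.12 and 0.05 at 26 °C, a difference of -0.77 ± 0.18 (adjusted p = 0.022). These 2 of 53 genes were called, where 7.46% of all genes were called either way. Neither was called on the deposited scale, or when the repeated array was counted as YJS8 at 37 °C. The latter goes against that array's GCN5 value, at -6.00 against 0.52 on the array of YJS8 used here. Both were lost without replicate 2 of the 26 °C group (UTP23 at -0.79, NOP7 at -0.72), NOP7 also without replicate 1 (-0.83).

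Genes of the same pathway outside the name rule were counted on the same arrays. Of 51 other large-subunit factors, 28 were lower and 1 higher in YKH109 (median -0.32), and 18 were lower and 1 higher in YKH108 (median -0.34). The shares of all genes called lower and higher were 27.6% and 25.5% in YKH109 and 19.6% and 17.6% in YKH108. Among them, the giant remodelling ATPase REA1 was at -1.87 ± 0.19 and the helicase DBP2 at -1.04 ± 0.12 in YKH109, while MAK21, the partner of NOC2 in early particles, was higher in YKH108 (1.23 ± 0.13) and YKH107 (1.16 ± 0.13). Of 44 other small-subunit factors, 21 were lower and 1 higher in YKH109 (median -0.25), with KRR1, a processome protein, at -1.46 ± 0.14. In YKH108 11 of the 44 were lower and 0 higher, and in YKH107 11 were lower and 7 higher, against 24.7% and 23.9% of all genes, among them BUD22 (1.48 ± 0.19). On the array of YKH100, ENP1, a small-subunit factor, was at -5.16 ± 0.18 (n = 1), a change without a replicate check.

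The partners of the snoRNP proteins were lower at 5 of 7 genes in both YKH108 and YKH109, with 0 higher, where 19.6% and 27.6% of all genes were lower. GAR1, of the box H/ACA snoRNPs that guide pseudouridylation, was lower in 6 groups: YKH101 (-0.88), YJS8 (-0.92), YJS9 (-0.77), YKH107 (-0.92), YKH108 (-0.77) and YKH109 (-0.96). Of 11 exosome partners, 6 were higher and 1 lower in YKH107, against 23.9% and 24.7% of all genes, led by AIR2 (0.97 ± 0.13) and AIR1 (0.87 ± 0.21), zinc knuckle proteins of the TRAMP complex that hands RNA to the exosome. Of 11 RNA polymerase I genes, 4 were lower and 0 higher in YKH108, where 19.6% and 17.6% of all genes were called. In YKH109 4 were lower and 2 higher, against 27.6% and 25.5% of all genes. The largest subunit, RPA190, was among the lower (-0.99 ± 0.20 in YKH108 and -1.16 ± 0.16 in YKH109), and RRN11, of the core factor, was higher in YKH109 (0.60 ± 0.12). In YKH107 4 were higher, among them the initiation factor RRN3 (1.13 ± 0.15), and 2 were lower, RPA135 (-0.90 ± 0.28) and RPA43 (-0.61 ± 0.12).

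Of 9 known regulators of ribosome genes, 3 were higher and 2 lower in YKH107, 3 higher and 2 lower in YJS9, 2 higher and 3 lower in YKH109, and 0 higher and 4 lower in YKH101. The shares of all genes called higher and lower were 23.9% and 24.7% in YKH107 and 21.7% and 22.3% in YJS9. In YKH109 they were 25.5% and 27.6%, and in YKH101 19.6% and 20.1%. FHL1, which binds ribosomal protein promoters, was lower in YKH107 (-1.42 ± 0.15), YJS9 (-0.89 ± 0.15), YKH101 (-0.84 ± 0.15) and YKH109 (-0.49 ± 0.15). Its coactivator IFH1 was higher in YKH107 (1.09 ± 0.14), YJS9 (0.996 ± 0.14), YKH104 (0.70 ± 0.14) and YKH109 (0.52 ± 0.12). SFP1, an activator of biogenesis genes, was higher in YJS9 (0.97 ± 0.18) and lower in YJS7 (-0.59 ± 0.18). The repressors TOD6, which was lower in YKH101 (-0.97), and DOT6, which was lower in YKH109 (-0.59), bind the PAC element of biogenesis promoters.

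Most cytoplasmic ribosomal protein genes were lower in 5 strains. Of the 135 cytoplasmic ribosomal protein genes on the array, 115 of 134 tested were lower in YKH101 (median -1.03), 108 of 135 in YKH108 (median -0.89), 104 of 134 in YKH109 (median -0.79), 88 of 134 in YJS9 (median -0.81) and 87 of 135 in YKH107 (median -0.72). Between 0 and 5 were higher in each of these strains, and 20.1% of all genes were lower in YKH101, 19.6% in YKH108, 27.6% in YKH109, 22.3% in YJS9 and 24.7% in YKH107. In the same strains the biogenesis genes had medians of -0.06 in YKH101, -0.18 in YKH108, -0.14 in YKH109, -0.03 in YJS9 and 0.08 in YKH107. Mitochondrial ribosomal protein genes were higher where they were called in number, with 37 of 55 in YKH107 (median 0.61) and 30 of 55 in YKH109 (median 0.43), against 23.9% and 25.5% of all genes, and 0 lower in both. The difference between these gene sets was not tested.

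**Figure D5:**
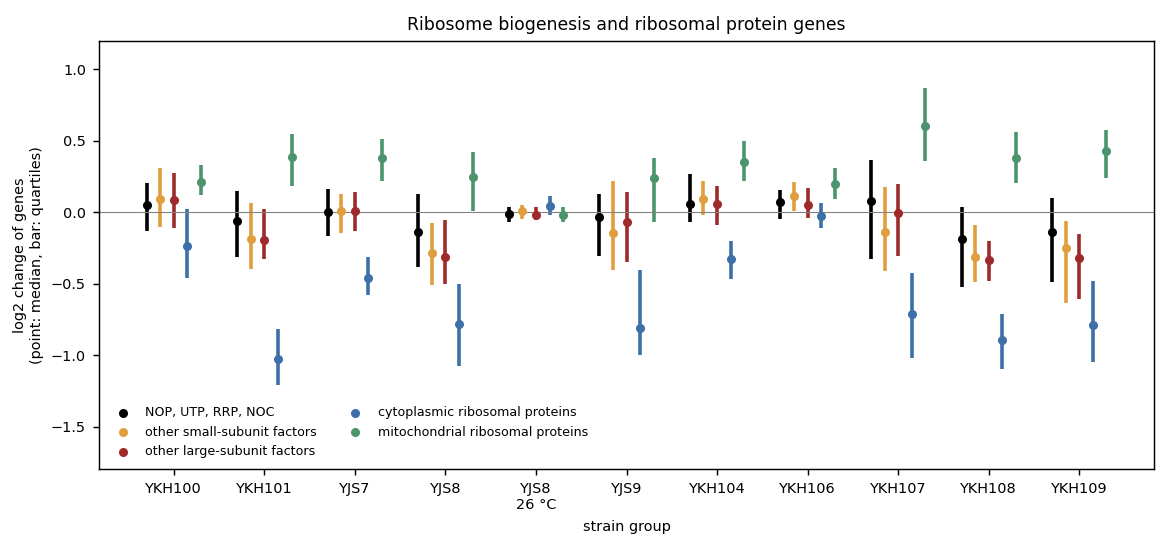
Median (point) and quartiles (bar) of the log2 change in each strain group for the NOP, UTP, RRP and NOC genes, other small-subunit and large-subunit factors, and cytoplasmic and mitochondrial ribosomal protein genes. The biogenesis genes stay between -0.18 and 0.08 in the median, while cytoplasmic ribosomal protein genes reach -1.03 in YKH101 and mitochondrial ones 0.61 in YKH107.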

How the data were processed

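The authors deposited a log2 ratio for every spot of an array, and the values carry a constant of 3e-07. The scanner was a GenePix 4000A and the image software GenePix Pro 4.0, per the labels' protocols. Background correction, normalization and genome build are not given in the sources used here, so no coordinates are printed. Spots were named through the platform table and RefSeq assembly R64 (5573 of 5578 spots with a gene), spots of the same gene were averaged and each array was centred on its median. Opposite orientations correlated positively in 8 of 9 groups and were read as already turned, the exception being YJS8 at 26 °C.

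A linear model was fitted with limma 3.58.1 in R 4.3.3 (lmFit and eBayes) to 21 arrays, with 1 term per group and a gene-wise dye term, with 9 residual and 2.84 prior degrees of freedom. All groups share 1 spread per gene, which also serves the groups with a single array. Genes needed values in both orientations and on at least 18 arrays. P-values were adjusted by Benjamini-Hochberg within a group over all tested genes. The script was tested on simulated data. The number of arrays limits the precision, with a median SE of 0.119 for 3 arrays, 0.144 for 2 and 0.209 for 1. Each member is counted, and those named are up to 4 called members with the largest and up to 4 with the smallest change per group or contrast, a fixed member of each role, members called in the most or fewest groups, and members whose arrays differ by more than 2 in a group, while up to 4 called genes per other list and group are named by size. Other members and the genes beside NOP19 were named after their values were seen. The members, gene lists and tests were chosen with earlier results of these data known. The alternatives tried were the deposited scale, no dye term, the repeated array under either or both strains, the self arrays in the fit, stricter missing values, the first spot, and each array left out. Promoter and protein sequences were not analysed here.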

Additional observations from a re-analysis of the deposited data

Results flagged for a closer look

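NOP58 on the self arrays of YJS6 had a sample far from the others: replicate 1 stood at -2.83, against -0.12, -0.07 and 0.41 on the other 3 arrays. Of 54 members examined in this way on these 4 arrays, NOP58 alone was picked out. Chance picks out about 1 gene in 20, so 1 pick among 54 members is not more than chance gives. NOP56, at -2.17 on replicate 4, was not picked out.

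The YJS8 to YJS6 ratios of NOP7 and UTP23 differed between temperatures by a test of the difference itself. The ratio of NOP7 was lower at 37 °C than at 26 °C by -0.77, and that of UTP23 by -0.98, each from 1 array at 37 °C. Neither was called on the deposited scale. Both calls were lost without replicate 2 of the 26 °C group, at -0.72 for NOP7 and -0.79 for UTP23.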

How the results depend on the processing

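The platform's own symbols gave the same 55 members. No paired analysis was possible because the labels carry no replicate numbers, the replicates were numbered in accession order, and orientation is already the dye term. On the deposited scale the called members numbered 0 in YKH100, 18 in YKH101, 1 in YJS7, 2 in YJS8, 10 in YJS9, 0 in YKH104, 23 in YKH108 and 46 in YKH109, and in the contrasts 13 for YKH107 minus YKH104, 42 for YKH109 minus YKH106 and 0 for YJS8 minus YJS8 at 26 °C, YJS9 minus YJS7, YJS9 minus YKH101, YKH107 minus YKH108 and YKH109 minus YKH107. These are the values before the array median is subtracted, and no share of all genes on that scale is given beside these counts. Signs were compared, on that scale and under the other alternatives, only for the members named by rule. The same scale turned round the sign of NOC3 in YJS9 minus YJS7 (-0.13), of NOP12 (-0.52), RRP15 (-0.47), RRP7 (-0.57), RRP9 (-0.43) and UTP15 (-0.67) in YKH109, of RRP14 (-0.64), RRP15 (-0.051), RRP4 (-0.60), UTP13 (-0.52), UTP18 (-0.031) and UTP6 (-0.16) in YKH107, of RRP6 (-0.24) and UTP15 (-0.36) in YKH101, of UTP15 (-0.15) and UTP18 (-0.17) in YJS9, and of RRP7 (-0.40), RRP9 (-0.44) and UTP15 (-0.27) in YKH107 minus YKH104. For these named members no sign turned under any other alternative. The signs of other called members, such as RRP3, UTP30, RRP40 and NOP15 in YKH107, are not given here. Without the dye term 4 members were called in YKH104 and 4 in YKH107 minus YKH104. With the repeated array under both strains the counts were 2 in YJS8, 4 in YKH104, 0 in YJS8 minus YJS8 at 26 °C and 0 in YJS9 minus YKH101, and with it as YJS8 alone 0 in YKH100, 2 in YJS8, 4 in YKH104, 0 in YJS8 minus YJS8 at 26 °C, 3 in YJS9 minus YJS7 and 0 in YJS9 minus YKH101. With it as YKH100 alone, YJS9 minus YKH101 had 2. The labels do not give the orientation of the self arrays, and all were entered as if the test strain were in channel 1. Adding them left 3 in YJS9 minus YJS7 and 2 in YJS9 minus YKH101. For these counts the cause was not tested. Leaving out 1 array at a time gave 0 to 3 called members in YKH100, 6 to 14 in YKH101, 2 to 4 in YJS7, 4 to 7 in YJS8, 7 to 19 in YJS9, 0 to 8 in YKH104, 10 to 26 in YKH107, 6 to 17 in YKH108, 20 to 27 in YKH109 and 0 to 0 in YKH106 and in YJS8 at 26 °C. For the contrasts it gave 0 to 3 (YJS8 minus YJS8 at 26 °C), 0 to 7 (YJS9 minus YJS7), 0 to 2 (YJS9 minus YKH101), 1 to 8 (YKH107 minus YKH104), 2 to 10 (YKH107 minus YKH108), 3 to 11 (YKH109 minus YKH106), 0 to 1 (YKH109 minus YKH108) and 0 to 8 (YKH109 minus YKH107). For a strain left with 1 array the spread came from the other groups. The filters on missing values and on spots changed no call of a named member that could still be tested.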

Other observations

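The repeated array, which stands under both YKH100 and YJS8, held GCN5 at -6.00, against -4.98 on the other array of YKH100 and 0.52 on the other array of YJS8 at 37 °C. It held NOP19 at -1.23, against -1.21 on the other array of YKH100 and -0.01 on that of YJS8, and had RRP1 at 0.11, UTP23 at -0.33 and NOP7 at -0.18, relative to its median. Across the 55 members its median was -0.04 and its SD 0.27.

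Some members differed with the channel that held the test strain. NOP56 was lower with the test strain in channel 1 than in channel 2 in 7 of 7 groups measured in both orientations, by -0.52 in the mean, and RRP36 in 9 of 9 groups, by -0.34. UTP15 was higher with the test strain in channel 1 in 8 of 9 groups, by 0.21.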
